A study of Homo sapiens with 4 samples.

Results

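The genes described here are 10 human sensors and adaptors that recognise RNA or DNA in the wrong place or form and signal towards interferon: RIGI (also called DDX58), IFIH1, DHX58, TLR3, EIF2AK2, ZBP1, CGAS, STING1, MAVS and TBK1. They were chosen by name, and all 10 were found among the 60683 genes of the tables. RNA was measured in HCT116, an established human colorectal carcinoma line. In each of the 4 libraries the cells had been stably transduced with a pSin lentiviral vector and kept in puromycin. In 2 libraries, the controls, the vector was empty. In the other 2 it expressed FOXD2, a transcription factor of the forkhead family, from its full-length coding sequence. Both groups therefore share the vector and the drug, and cells without a vector were not analysed here. The promoter that drives FOXD2 in the vector and the number of integrations or clones are not given in the sources used here. The question of the comparison is how transcription differs in the presence of FOXD2.

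Cells detect viral and misplaced nucleic acid with a small set of receptors. RIG-I (RIGI) and MDA5 (IFIH1) are cytosolic helicases that bind double-stranded RNA, and they pass the signal to MAVS on the outer mitochondrial membrane. TLR3 reads double-stranded RNA inside endosomes, cGAS (CGAS) reads DNA and makes a cyclic dinucleotide that activates STING (STING1), and the kinase TBK1 acts below MAVS and STING to phosphorylate IRF3, which induces interferon. In epithelial cells the RNA helicases are themselves interferon-inducible, so that a low resting level can be raised.

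The libraries held 14231338 to 15535817 counts. Values are given as CPM, the count relative to the scaled library size, for comparing 1 gene between libraries, and as the authors' TPM, which also divides by transcript length, for comparing genes. FOXD2, the check of the labels, had 49 and 42 counts in the controls and 8195 and 7011 in the FOXD2 libraries. Of 9 epithelial markers, 7 were present in all libraries. EPCAM, KRT8, KRT18, KRT19, CDH1 and CLDN7 were called higher, by 0.15 (EPCAM) to 1.09 (CDH1) on the log2 scale, and CDX2 lower (-0.51). CDX1 had 0 counts throughout and VIL1 at most 6. Of 10 blood cell markers only CD68 and FLT3 could be tested, with CD68 called higher (log2 fold change 2.98) and FLT3 lower (-1.80). PTPRC, CD3E and CLEC4C had 0 counts in every library. That list summed to 6.58 and 6.89 CPM without FOXD2, and to 43.5 and 36.8 CPM with it, of which CD68 made up 42.3 and 35.5 CPM. The fibroblast list summed to 9.51 and 10.9 CPM in the controls and to 31.8 and 33.1 CPM with FOXD2, through COL1A1 (log2 fold change 1.68), with COL1A2, DCN, LUM and PDGFRA at 0 counts throughout. The list for HEK293 packaging cells summed to 69.4 and 72.2 CPM, and to 98.4 and 88.5 CPM with FOXD2, with VGF (1.16) and PAX2 (0.42) higher, ZIC2 lower (-0.57) and NEFM at 0 counts throughout. Of 3 endothelial markers 1 was tested and not called. Mitochondrial mRNA made up 6.79% and 6.80% of the counts in the controls and 8.17% and 8.62% with FOXD2. The part of these markers and of mitochondrial RNA in the results was not tested. The FOXD2 libraries differed from each other in RNAs made without a polyA tail, which summed to 129.4 CPM in replicate 1 and 56.9 CPM in replicate 2, against 29.7 and 28.5 CPM in the controls.

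The cytosolic RNA helicases RIGI and IFIH1 rose more than 2-fold and STING1 rose about 1.5-fold, in both FOXD2 libraries each time. TLR3 and EIF2AK2 also passed the test as higher, but through 1 of the 2 FOXD2 libraries. MAVS was level, TBK1 was slightly lower, and CGAS and ZBP1 were at or near 0 counts in every library. By edgeR's quasi-likelihood test (adjusted p under 0.05 over all 14470 genes tested), 5 of the 10 genes were higher and 1 was lower, 2 were tested and not called, and 2 had too few counts to test. In the same comparison 27.2% of all tested genes were higher and 26.4% lower, 53.5% in either direction, which is the background of these counts. In CPM, both FOXD2 libraries stood above both controls for 6 of the 10, and for 38.9% of all tested genes. On the authors' TPM the groups overlapped for TLR3, DHX58 and EIF2AK2, which are among these 6. A rise of at least 2-fold was called for 3 of the 10, RIGI, IFIH1 and TLR3, and for 8.2% of all tested genes. DHX58 entered the test only through its FOXD2 libraries, so counts over the 8 tested genes are a description.

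**Figure D1:**
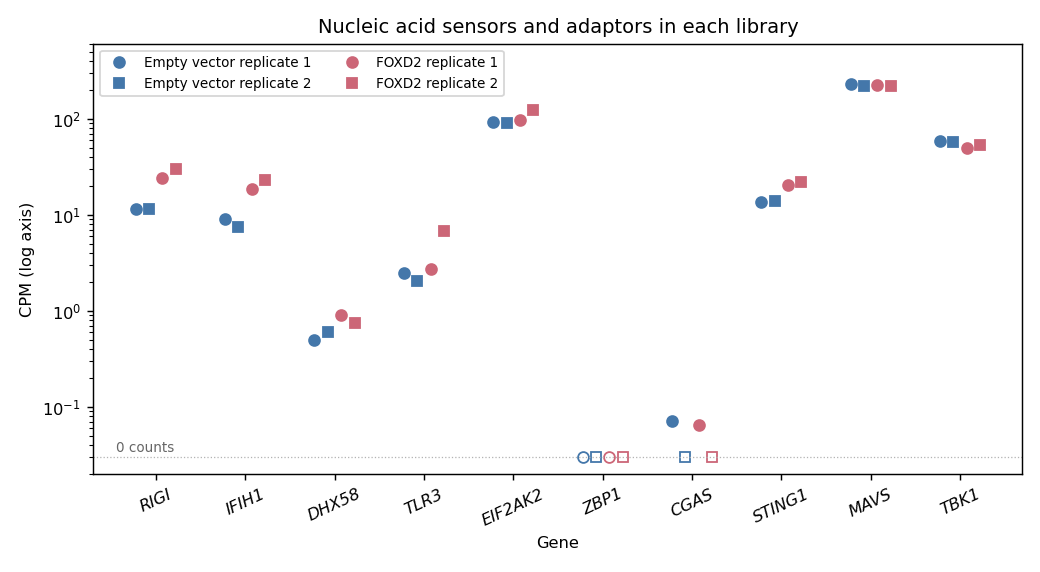
CPM of the 10 genes (x axis) in each of the 4 libraries, on a log axis, with 1 point per library. Open symbols on the dotted line mark 0 counts. RIGI, IFIH1 and STING1 show FOXD2 points clearly above the empty vector points, MAVS points coincide, and ZBP1 and CGAS sit at or near 0.

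RIGI encodes RIG-I, which recognises uncapped ends of double-stranded RNA (GRCh38, chromosome 9, 32455705 to 32526324, minus strand). It had 162 and 173 counts, or 11.6 and 11.5 CPM, in the controls and 372 and 435 counts, or 23.9 and 29.7 CPM, in the FOXD2 libraries. Both FOXD2 libraries stood above both controls, with FOXD2 replicate 2 the higher of the pair. The mean went from 11.5 ± 0.0899 to 26.8 ± 4.12 CPM (SD over n = 2 libraries), and the log2 fold change was 1.22 (SE 0.12, 95% interval 0.97 to 1.47, edgeR adjusted p = 4.1e-12). This change lay at the 94.0th percentile of the log2 fold changes of all tested genes.

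IFIH1 encodes MDA5, which recognises long double-stranded RNA (chromosome 2, 162267079 to 162318703, minus strand). Its counts were 126 and 112 in the controls and 291 and 336 in the FOXD2 libraries, or 9.01, 7.42, 18.7 and 23.0 CPM. The groups did not overlap, and FOXD2 replicate 2 was again the highest library. The mean went from 8.22 ± 1.13 to 20.8 ± 3.02 CPM, a log2 fold change of 1.34 (SE 0.14, 95% interval 1.06 to 1.63, edgeR adjusted p = 1.1e-11). With any 1 library left out, the log2 fold change stayed between 1.05 and 1.36 for RIGI and between 1.19 and 1.49 for IFIH1, and both remained called.

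DHX58 encodes LGP2, the helicase of this family that lacks the signalling domain and tunes the other members (chromosome 17, 42101404 to 42112733, minus strand). It was scarcely expressed, with 7 and 9 counts in the controls and 14 and 11 in the FOXD2 libraries, or 0.501, 0.596, 0.899 and 0.752 CPM. The FOXD2 values were the higher pair, but the log2 fold change of 0.58 (SE 0.51) had a 95% interval of -0.43 to 1.60 and did not pass (edgeR adjusted p = 0.34). A change of DHX58 as large as that of RIGI or IFIH1 lies inside this interval, as does none. On the authors' TPM its difference was -0.01 on the log2 scale.

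The bases in front of RIGI and IFIH1 are shown because both genes rose. Promoter sequences came from RefSeq, GRCh38, which held 6 of the 10 genes (RIGI, IFIH1, TLR3, EIF2AK2, MAVS and TBK1). Each window runs from 250 bases before to 50 bases after the RefSeq start, whose first transcribed base is numbered 1. It was searched on both strands for 2 copies of GAAA with any 2 bases between them, the core of the interferon-stimulated response element, for TTCNNNGAA, the gamma-activated site bound by STAT dimers, and for the forkhead core TGTTTAC. The first was found in 3.57% of the 35116 promoters of the table, the second in 7.66% and the third in 3.42%. In the 250 bases before the start alone, the shares were 3.02%, 6.57% and 2.98%. IFIH1 held the interferon-stimulated core at 3 places, 2 of them overlapping on the other strand at -159 to -150 and -153 to -144, and 1 on its own strand at -21 to -12. The first line gives chr2:162318704-162318934 and the second chr2:162318686-162318715, both 5′ to 3′ on the minus strand, with the matches in capitals (2 copies of TTTC where the match is on the other strand).
IFIH1 promoter: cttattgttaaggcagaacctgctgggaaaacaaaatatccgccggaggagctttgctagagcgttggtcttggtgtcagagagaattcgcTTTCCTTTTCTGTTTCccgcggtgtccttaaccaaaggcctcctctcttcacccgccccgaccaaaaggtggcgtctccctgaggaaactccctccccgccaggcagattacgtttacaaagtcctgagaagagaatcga
IFIH1 site near the start: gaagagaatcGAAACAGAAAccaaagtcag

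RIGI held none of these letters in its window. It did hold a pair of GAAA with 1 base between, GAAANGAAA, at -203 to -195, a pattern that was chosen after the sequence had been seen and that occurs in 3.12% of all promoters of the table. The stretch is chr9:32526381-32526409, minus strand, with the pair in capitals.
RIGI stretch: ggtgcggaggGAAACGAAActagcccgag

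TLR3 and EIF2AK2 showed a difference that came from 1 library. TLR3, the endosomal receptor for double-stranded RNA (chromosome 4, 186069152 to 186088069, plus strand), had 35 and 31 counts in the controls and 42 and 100 in the FOXD2 libraries, or 2.50, 2.05, 2.698 and 6.83 CPM. FOXD2 replicate 1 lay just above the controls and replicate 2 far above them. The log2 fold change was 1.06 (SE 0.39, 95% interval 0.20 to 1.92, edgeR adjusted p = 0.039). Without FOXD2 replicate 2 it was 0.25. Without FOXD2 replicate 1, which leaves the higher library alone in its group, it was 1.58. DESeq2 did not call the gene (adjusted p = 0.098).

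EIF2AK2 encodes PKR, the kinase that binds double-stranded RNA and halts translation by phosphorylating eIF2α (chromosome 2, 37099210 to 37157065, minus strand). Its counts were 1300 and 1376 in the controls and 1493 and 1806 in the FOXD2 libraries, or 93.0, 91.1, 95.9 and 123.4 CPM. Here too FOXD2 replicate 1 was close to the controls. The log2 fold change was 0.25 (SE 0.10, 95% interval 0.04 to 0.46, edgeR adjusted p = 0.044). It fell to 0.06 without FOXD2 replicate 2. Without FOXD2 replicate 1, which leaves the higher library alone in its group, it reached 0.42. DESeq2 did not call EIF2AK2 (adjusted p = 0.093).

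**Figure D2:**
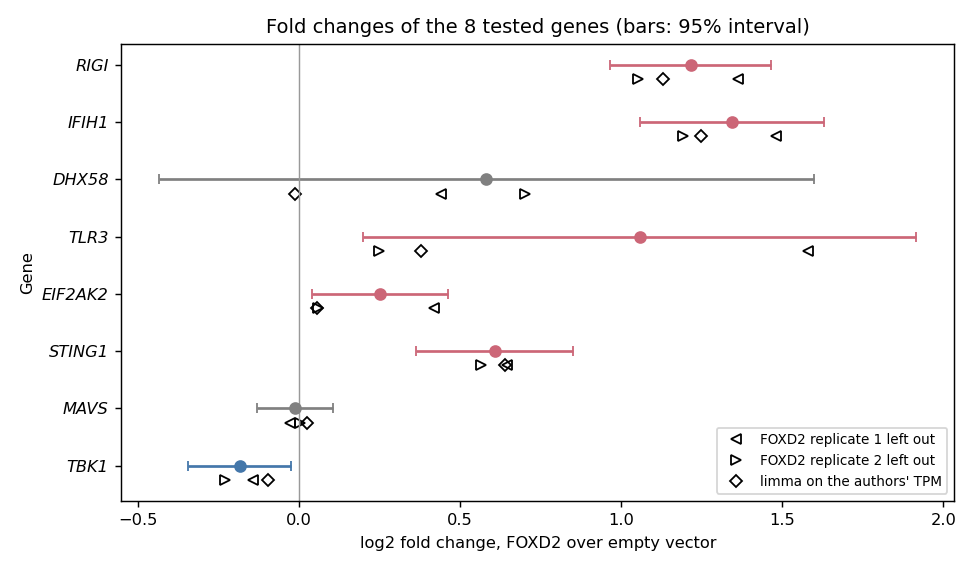
Log2 fold change of FOXD2 over empty vector (x axis) for the 8 tested genes (y axis), with 95% intervals; red marks genes called higher, blue lower and grey not called. Open triangles give the value with 1 FOXD2 library left out and open diamonds the value on the authors' TPM: for TLR3 and EIF2AK2 these move to 0.25 and 0.06 without FOXD2 replicate 2, while RIGI, IFIH1 and STING1 stay clear of 0.

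The difference between the FOXD2 libraries was set beside that of all tested genes. FOXD2 replicate 2 exceeded replicate 1 by a ratio of 1.24 in RIGI, 1.23 in IFIH1, 1.29 in EIF2AK2 and 2.53 in TLR3. The ratio was 1.06 in STING1, 1.07 in TBK1, 0.983 in MAVS and 0.836 in DHX58. Over all tested genes it lay between 0.784 and 1.41 from the 5th to the 95th percentile. A ratio above that of TLR3 was found for 0.622% of tested genes, and above that of EIF2AK2 for 8.10%. In the controls the ratios of replicate 2 to replicate 1 lay between 0.820 and 1.19 for the same genes. Over all tested genes the control ratio lay between 0.728 and 1.36 from the 5th to the 95th percentile. The part of the RNAs without a polyA tail, which were higher in FOXD2 replicate 1, in these values was not tested. In bulk RNA, more cells with a transcript and more RNA per cell cannot be told apart.

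**Figure D3:**
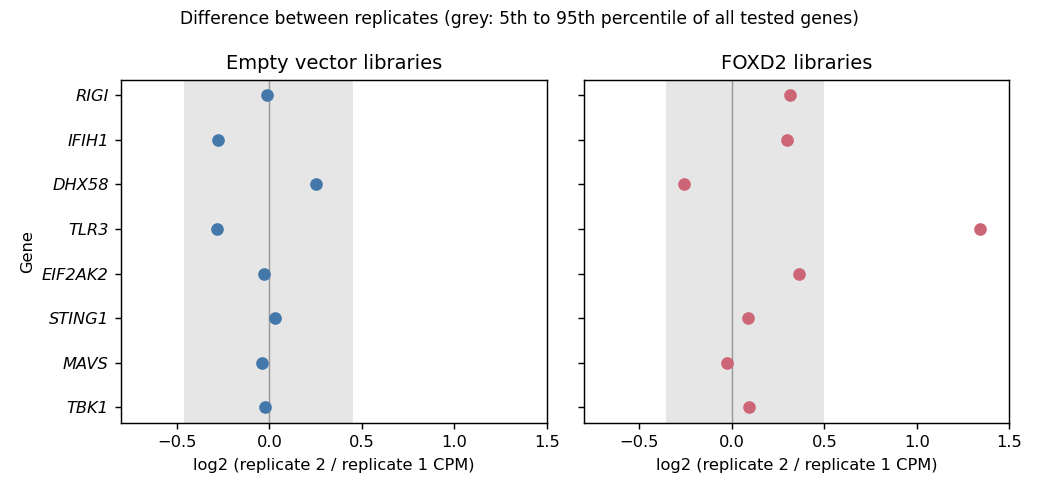
Log2 ratio of replicate 2 to replicate 1 in CPM (x axis) for the 8 tested genes (y axis), in the controls (left) and the FOXD2 libraries (right). The grey band spans the 5th to the 95th percentile of all tested genes; TLR3 lies outside it in the FOXD2 libraries, and RIGI, IFIH1 and EIF2AK2 lie towards its upper side.

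The starts of both genes are shown because each holds the interferon-stimulated core across its RefSeq start. In EIF2AK2 it was on the gene's own strand at -6 to 4 (chr2:37156967-37156996, minus strand). In TLR3 it was on the other strand at -4 to 6 (chr4:186069142-186069171, plus strand). Across the 6 genes with a promoter the core was thus found in 3 over the whole window and in 1, IFIH1, within the 250 bases before the start.
EIF2AK2 start: agtccaagggGAAAACGAAActgagaacca
TLR3 start: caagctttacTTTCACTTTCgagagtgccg

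TLR3 was also the only one of the 6 with the gamma-activated letters, at -178 to -170 and at -50 to -42. They are in capitals in its upstream bases, chr4:186068906-186069151, plus strand. The forkhead core TGTTTAC was in none of the 6 windows, which says only that these letters are not in them.
TLR3 promoter: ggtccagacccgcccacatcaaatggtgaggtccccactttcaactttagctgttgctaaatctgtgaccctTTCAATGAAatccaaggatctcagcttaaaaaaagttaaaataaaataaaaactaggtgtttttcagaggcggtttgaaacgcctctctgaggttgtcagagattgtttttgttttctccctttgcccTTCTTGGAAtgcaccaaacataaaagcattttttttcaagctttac

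ZBP1, a sensor of left-handed double-stranded nucleic acid that links to necroptosis (chromosome 20, 57603846 to 57620576, minus strand), had 0 counts in all 4 libraries. A count of 0 allows up to 3 counts, or between 0.193 and 0.215 CPM in these libraries. RIPK3, the kinase that ZBP1 recruits, also had 0 counts in all 4 libraries.

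The cGAS route was present as RNA below its sensor only. CGAS (chromosome 6, 73413515 to 73452276, minus strand) had 1 count in control replicate 1, 1 in FOXD2 replicate 1 and 0 in the other libraries, so its level was at or under the limit of detection in both groups and no fold change is given. STING1, the adaptor on the endoplasmic reticulum that binds the product of cGAS (chromosome 5, 139475534 to 139482935, minus strand), was readily detected. It had 192 and 212 counts in the controls and 320 and 319 in the FOXD2 libraries, or 13.7, 14.04, 20.6 and 21.8 CPM. The pairs were tight and did not overlap. The mean went from 13.9 ± 0.22 to 21.2 ± 0.877 CPM, a log2 fold change of 0.61 (SE 0.12, 95% interval 0.36 to 0.85, edgeR adjusted p = 2.9e-05). It stayed between 0.57 and 0.65 with any 1 library left out. Of the DNA receptors in the lists, IFI16 (1 count in each group) and AIM2 (0 throughout) were as scarce as CGAS, whereas DDX41 (102.2 ± 1.26 CPM in the controls and 90.1 ± 4.03 with FOXD2) and PRKDC were abundant.

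MAVS, the adaptor of RIG-I and MDA5 (chromosome 20, 3846799 to 3876123, plus strand), was level. It had 227.2 and 221.0 CPM in the controls and 224.2 and 220.4 CPM in the FOXD2 libraries, so that the groups overlapped. Its log2 fold change was -0.01 (SE 0.06, edgeR adjusted p = 0.88), with a 95% interval of -0.13 to 0.11. A change of MAVS as large as that of STING1 lies outside this interval.

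TBK1, the kinase shared by the MAVS, STING and TLR3 routes (chromosome 12, 64451880 to 64502108, plus strand), had 58.8 and 57.8 CPM in the controls and 49.7 and 53.0 CPM in the FOXD2 libraries. Both FOXD2 libraries lay below both controls, as they did for 37.2% of all tested genes. The log2 fold change was -0.18 (SE 0.08, 95% interval -0.34 to -0.02), which passed narrowly (edgeR adjusted p = 0.048). With 1 library left out, the gene was called in 1 of 4 cases, without FOXD2 replicate 2 (adjusted p = 0.031). Over these 4 cases the log2 fold change ranged from -0.23 to -0.14. TBK1 was not called by limma-voom (adjusted p = 0.052) or DESeq2 (0.18).

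Levels were compared between the genes on the authors' TPM. In the controls the order was TBK1 (27.3 ± 0.368 TPM), MAVS (24.5 ± 0.940), EIF2AK2 (20.3 ± 4.25), STING1 (10.1 ± 0.841), IFIH1 (3.79 ± 0.841), RIGI (3.31 ± 0.0566), DHX58 (1.17 ± 0.0636), TLR3 (1.06 ± 0.0990), CGAS (0.03 and 0 TPM) and ZBP1 (0). MAVS and TBK1 were thus several-fold more abundant as RNA than the helicases that signal through them. IFIH1 and RIGI overlapped between libraries, as did DHX58 and TLR3. In the FOXD2 libraries STING1 was at 15.99 ± 0.544, IFIH1 at 9.63 ± 1.46 and RIGI at 7.88 ± 1.38 TPM, and the order of these 3 among the 10 was the same. TBK1 (25.5 ± 1.44) and MAVS (24.99 ± 0.0919) overlapped there.

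The TPM of a gene also moves with the mean transcript length that the authors' software estimated in each library. For EIF2AK2 that length was 5316 and 6774 bases in the controls and 6661 and 7252 bases in the FOXD2 libraries, and its TPM was 23.3 and 17.3 against 19.0 and 22.9. The groups overlapped on this scale, and the log2 difference was 0.06 (limma adjusted p = 0.81). For TLR3 the lengths were 3437 and 2464 bases against 4196 and 3802, and the log2 difference on TPM was 0.38 (limma adjusted p = 0.45). MAVS kept a length between 11709 and 11719 bases in all libraries. RIGI, IFIH1 and STING1 were called on TPM too, at 1.13, 1.25 and 0.64 on the log2(TPM + 0.5) scale (limma adjusted p at most 0.0073).

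Exons of 3 of the genes overlap another gene on the opposite strand in GENCODE release 29. TBK1 shares 14.7% of its exon bases with the antisense gene AC135279.3, which had at most 3 counts in a library. CGAS shares 4.33% with DDX43, which had 0 counts. EIF2AK2 shares 3.73% with a pseudogene without counts and 0.325% with GPATCH11, which had 260 to 308 counts. No exon overlap was annotated for the other 7, and the software's posterior SD of the count was 0 for all 10 genes in every library; this SD exceeds 0 where reads are divided between genes.

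The wider pathway was described from 6 lists, each by its counts and by its median log2 fold change, which was 0.01 over all tested genes. Of all tested genes 27.2% were higher and 26.4% lower, which is the background of the counts in every list. No list was tested as a set. Up to 6 called genes are named per list, those with the largest change. Genes named beyond these were chosen after their values were seen.

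Among 18 other nucleic acid sensors, 12 were tested, 6 were higher and 4 lower (median 0.27). Oligoadenylate synthetases, enzymes activated by double-stranded RNA, were among the higher ones. OASL, a catalytically inactive member that assists RIG-I, went from 2.697 ± 0.535 to 17.1 ± 0.425 CPM, a rise of 2.67 on the log2 scale (SE 0.18). OAS3 went from 72.7 ± 7.01 to 124.4 ± 24.8 CPM, with 106.9 and 142.0 CPM in the FOXD2 libraries. Its log2 fold change was 0.77 (SE 0.18, 95% interval 0.23 to 1.32, edgeR adjusted p = 0.037). OAS1 passed the filter on low counts only through the FOXD2 libraries, so the count and median of this list are a description. It summed to 3 counts over the controls and 96 with FOXD2, and the ratio of the levels was 30.8 (95% interval 10.2 to 152.0, counting error only). OAS2 was not tested and had 0 and 1 counts in the controls and 3 and 13 in FOXD2 replicates 1 and 2. Summed to 1 and 16 counts, its ratio was 15.4 (interval 2.39 to 646.0, counting error only), and most of the 16 came from FOXD2 replicate 2. The intervals of OAS1 and OAS2 pool the libraries of each group and leave out the spread between them. They are therefore no test of a difference between the groups. NOD2 had a log2 fold change of 0.61, and 0.39 (adjusted p = 0.16) without control replicate 2; DESeq2 and limma on TPM did not call it (adjusted p = 0.12 by each). PRKDC, the catalytic subunit of DNA-dependent protein kinase, fell by 0.56 on the log2 scale (SE 0.06). TLR7, TLR8 and TLR9, the endosomal receptors of immune cells, had 0 counts in every library. Without either control library, 2 genes of this list were lower instead of 4.

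Of 23 cofactors and signalling genes, 22 were tested, 8 were higher and 2 lower (median 0.05). IRF7, the interferon-inducible factor that amplifies interferon synthesis, went from 3.95 ± 0.0288 to 28.3 ± 3.11 CPM, a rise of 2.84 on the log2 scale (SE 0.15). MYD88, the adaptor of most Toll-like receptors, rose by 0.91 (SE 0.10), the necroptosis effector MLKL by 0.79 (SE 0.14) and the ubiquitin ligase TRAF6 by 0.66 (SE 0.11). IKBKE, the kinase closest to TBK1, had a value of 0.64 (SE 0.20) that was 0.51 (adjusted p = 0.092) without control replicate 2, and DESeq2 and limma on TPM did not call it (adjusted p = 0.14 by each). The stress granule protein gene G3BP1 fell by 0.49 (SE 0.06), and TANK was the other lower gene (-0.21, SE 0.08). IRF3, the constitutive target of TBK1, had 42.4 CPM in both groups and a value of 0.00 (SE 0.09). Without control replicate 2, 5 genes of the list were higher instead of 8, and without control replicate 1, 1 was lower instead of 2.

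All 12 genes listed as nucleases, editors and related factors were tested, with 4 higher and 5 lower (median -0.12). LSM11, a histone RNA processing factor, fell by 0.70 (SE 0.13), a call lost on TPM (limma adjusted p = 0.055). RNASEH2A and RNASEH2B, the catalytic subunit and 1 accessory subunit of RNase H2, fell by 0.61 (SE 0.08) and 0.51 (SE 0.09). The dNTP hydrolase SAMHD1 (0.46, SE 0.08) and the RNA exosome helicase SKIC2 (0.42, SE 0.09) rose. TREX1, the main cytosolic DNA exonuclease, had a value of -0.45 (SE 0.18, edgeR adjusted p = 0.034), which was -0.38 (adjusted p = 0.17) without control replicate 2 and -0.17 (adjusted p = 0.49) without FOXD2 replicate 1. It was not called by DESeq2 (adjusted p = 0.26), on TPM (limma, 0.28) or without TMM factors (0.091). ADAR, which edits double-stranded RNA, was at 0.00 (SE 0.06). Without control replicate 2, 3 genes of the list were lower instead of 5.

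Of 10 inhibitors of sensor signalling, all tested, 4 were higher and 2 lower (median 0.03). The ubiquitin-editing enzyme TNFAIP3 went from 4.15 ± 0.711 to 25.9 ± 0.836 CPM, a rise of 2.65 on the log2 scale (SE 0.15), and NLRC5, which also activates MHC class I genes, from 5.08 ± 0.81 to 16.2 ± 3.56 CPM (1.67, SE 0.17). The deubiquitinases CYLD (0.77, SE 0.11) and OTUD5 (0.41, SE 0.08) rose. NLRX1, a mitochondrial protein that restrains MAVS, fell by 0.47 (SE 0.12), a call lost on TPM (-0.45, limma adjusted p = 0.075). BANF1, a chromatin protein that limits access of cGAS to DNA, fell by 0.46 (SE 0.07).

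None of the 7 interferon genes listed had a count in a FOXD2 library. IFNB1, IFNA1, IFNK, IFNL1, IFNL2 and IFNL3 had 0 counts in all 4 libraries, and IFNE had 2 and 3 counts in the controls and 0 in both FOXD2 libraries, within the limit of 3 counts per library. These libraries were made from polyA RNA, and a level under the limit of detection is not excluded. Of the 6 receptor genes tested, none was higher and IFNAR2 alone was lower (-0.41, SE 0.13; median of the 6, 0.05). At an unadjusted p under 0.05 edgeR placed 1 higher, IL10RB. At an adjusted p under 0.05 DESeq2 and both limma tests placed 0 higher. IFNAR2 was not called by DESeq2 (adjusted p = 0.089) or on TPM (limma, 0.17). Without control replicate 1 it was at -0.36 (adjusted p = 0.071), so none was lower, and without FOXD2 replicate 2, 1 gene was higher.

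PKR is 1 of 4 eIF2α kinases, and the other three with 5 genes around them formed the last list. Of these 8, 1 was higher and 5 lower (median -0.21). The phosphatase subunit PPP1R15A, which reverses eIF2α phosphorylation, went from 33.9 ± 0.933 to 56.0 ± 6.92 CPM, a rise of 0.72 on the log2 scale (SE 0.09). The amino acid sensing kinase EIF2AK4 fell by 0.61 (SE 0.07), from 112.6 ± 1.92 to 73.9 ± 1.51 CPM, and the transcription factor ATF4 by 0.53 (SE 0.06). Smaller differences were found for PPP1R15B (-0.25), the haem-regulated kinase EIF2AK1 (-0.18) and EIF2S1, which encodes eIF2α (-0.15). Each of these 3 was lost without control replicate 1 (adjusted p = 0.10, 0.058 and 0.35). EIF2AK1 (0.15) and EIF2S1 (0.073) were also lost without control replicate 2, and EIF2S1 (0.14) without FOXD2 replicate 2. DESeq2 did not call EIF2S1 (adjusted p = 0.064), limma on TPM did not call PPP1R15B (0.13) or EIF2AK1 (0.80), and without TMM factors EIF2AK1 (0.11) and EIF2S1 (0.24) were lost. The number of lower genes was 2 without control replicate 1 and 3 without control replicate 2, and 2 genes were higher without FOXD2 replicate 1.

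**Figure D4:**
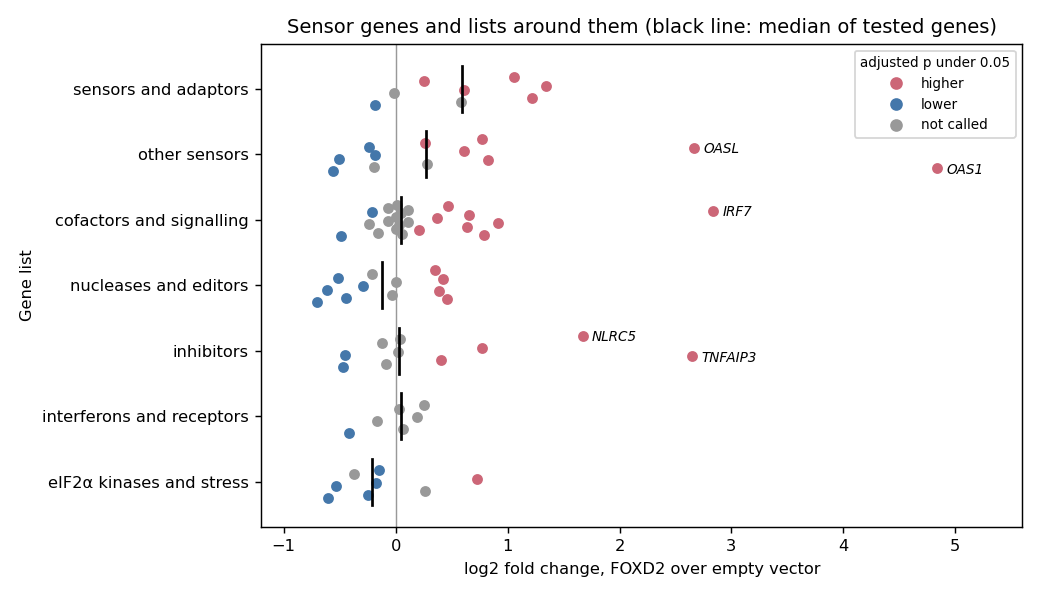
Log2 fold change of FOXD2 over empty vector (x axis) for the tested genes of each list (y axis), 1 point per gene, with the median of each list as a black line; red marks genes called higher, blue lower and grey not called. The sensors and adaptors spread from -0.18 (TBK1) to 1.34 (IFIH1), and genes beyond 1.5 are named; the position of OAS1 rests on 3 counts in the controls.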

How the data were processed

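PolyA RNA of 4 HCT116 libraries was sequenced from a strand-specific kit, per the labels' protocols. The authors aligned or counted with STAR 2.7.2b and RSEM 1.2.31 on GRCh38, per the submitters' processing notes; the annotation release and the strand setting are not given in the sources used here. The authors' tables hold, per the file headers, RSEM expected counts, TPM, mean transcript length and the posterior SD of the count. Symbols came from a gene table (60370 of 60683 matched), positions from GENCODE release 29 and promoters from RefSeq. The files list other transcript sets than release 29 for some genes.

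Expected counts were rounded and tested with edgeR 4.0.16 in R 4.3.3 (TMM, filterByExpr, robust quasi-likelihood fit, group only, both directions, Benjamini-Hochberg over 14470 genes, threshold 0.05), also checked on simulated data. Unless another tool is named, adjusted p-values are from this fit. CPM uses the TMM-scaled size of the filtered library. The SE is the log2 fold change divided by the square root of F. Alternatives used DESeq2 1.42.0 and limma 3.58.1. Limits and count intervals cover counting error only, as reads carry no molecular identifiers.

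Nothing in the labels ties the replicates to separate cultures. The p-values then measure only how far these libraries spread, and that spread may be technical. The edgeR fit also shares the spread across genes, with a median of 53.4 total degrees of freedom per gene. The SE and p-value of a gene therefore do not rest on its own libraries alone. Promoters were searched as described in the report. Up to 6 called genes were named per list, by the size of the log2 fold change; 1 gene that the rule would name is not reported here. Replicates differed by more than sampling noise (chi-square per degree of freedom 2.52 and 3.91 within groups). The 10 genes, the lists and the rule for naming genes were chosen with earlier results of these data known.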

Additional observations from a re-analysis of the deposited data

How the results depend on the processing

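RIGI, IFIH1 and STING1 were called higher under all 12 alternatives, at log2 fold changes of 1.05 to 1.36, 1.19 to 1.49 and 0.57 to 0.67. MAVS was called under none of them, and DHX58 under none of the 11 in which it was tested. DHX58 did not pass the filter of 1 CPM in 2 libraries. The count of higher genes among the 10 was 5 in the report, 3 by DESeq2, 3 on TPM and 3 to 5 with 1 library left out. The count of lower genes was 1, and 0 with a filter of 1 CPM in 2 libraries, by DESeq2, by limma-voom, on TPM, with the replicate block, without TMM factors (chosen after seeing the data), and 0 to 1 with 1 library left out. TLR3 was not called by DESeq2 (1.05, adjusted p = 0.098) or on TPM (0.38), and ranged from 0.25 to 1.58 with 1 library left out. EIF2AK2 was not called by DESeq2 (0.23) or on TPM (0.057), and ranged from 0.060 to 0.42. TBK1 was not called with the 1 CPM filter (-0.18, adjusted p = 0.050), by DESeq2 (-0.20), limma-voom (-0.18) or TPM (-0.10), with the replicate block (-0.18) or without TMM factors (-0.12), and ranged from -0.23 to -0.14 with 1 library left out. The causes were not tested. EIF2AK1 had the opposite sign on TPM (0.027, adjusted p = 0.80).

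Over all genes DESeq2 placed 2407 higher, against 3929, and limma on TPM 2435 lower, against 3816. The 6 lists held 19 lower genes, 10 on TPM and 12 to 18 with 1 library left out. The replicate numbers are not said to mark a shared culture, and deviations of same-numbered libraries correlated at -0.099 over genes. With the replicate block 3680 genes were higher and 3494 lower, and 5 of the 10 genes were higher. With 1 library left out, the remaining library of that group is taken to vary as the other group does. Counts of 0 or 1 (ZBP1, CGAS) are limited by depth.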
